A study of Mus musculus with 8 samples.

Results

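Open chromatin in cells with an induced dominant-negative Snf2h protein was compared with open chromatin in the parental cells, both kept without tetracycline. The comparison rests on 2 of the 8 DNase-seq libraries of the series, and the libraries of the same lines with tetracycline served as the check. All 4 groups are of the 3134 line, a mouse mammary epithelial cell line, grown for 48 hours in medium with charcoal-dextran treated serum, with or without tetracycline. The DNSnf2h line carries human SNF2H with a FLAG tag and with lysine 211 changed to arginine, delivered by a retroviral vector into cells that hold the tetracycline transactivator. Tetracycline represses this protein and its removal induces it. Maintenance in 5 µg/ml tetracycline is given for all 8 samples. The remaining libraries, cited where named, are of 3134 cells with dominant-negative Brg1 (DNBrg1) or Chd4 (DNCHD4), with and without tetracycline. Whether the line is 1 clone, and whether the parental cells hold the transactivator, is not stated in the labels. Each group has 1 library, so p-values are not printed and no difference was checked in a replicate. The hotspots carry no gene names on their build (mm9), so the epithelial identity of the cells was not checked against marker genes.

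Snf2h is the ATPase of the mammalian ISWI remodeling complexes, which slide nucleosomes along DNA and space them evenly. The changed lysine lies in the ATP-binding site, so the protein can enter complexes without powering them. DNase I cuts preferentially where nucleosomes are missing or displaced, as at promoters, enhancers and insulators, and a cluster of cuts is called a hotspot. The value of a hotspot here is its highest tag density as deposited.

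The induced library listed 33793 hotspots and the parental library without tetracycline 35071. Merging hotspots that overlapped by at least 1 bp gave 48741 sites. Of these, 19363 were listed in both libraries, 13821 in DNSnf2h alone and 15557 in parental cells alone. In DNSnf2h cells without tetracycline the median hotspot had a density of 11.3, or 56 tags, and in parental cells 23.9, or 93 tags. The lowest listed densities were 8.06 and 10.0, which are 40 and 39 tags. The signal of the DNSnf2h library was therefore close to the start of its list: 10.7% of its hotspots reached 4 times the lowest density, beside 31.7% of the parental ones. Total sequencing depth is unknown.

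Strong parental hotspots were nearly all open in the induced cells as well. Every one of the 1970 parental hotspots with a density of 128 to 256 overlapped a DNSnf2h hotspot (95% Wilson interval 99.8% to 100%), as did all 635 above that. Between 64 and 128 the share was 98.9% (98.6 to 99.2), with 46 of 4306 not listed. It was 83.6% (82.7 to 84.5) between 32 and 64, and 19.7% (19.0 to 20.5) under 16. With tetracycline, parental hotspots of 64 to 128 overlapped a DNSnf2h hotspot less often, in 88.9% of cases (88.0 to 89.7), and 623 of 5604 were not listed. The densities of the 2 parental libraries are on their own scales, so a class does not hold the same hotspots in both states. Over whole lists, 59.1% (58.6 to 59.6) of the DNSnf2h hotspots overlapped a parental one and 55.6% (55.1 to 56.2) of the parental hotspots overlapped a DNSnf2h one. With tetracycline these shares were higher, at 82.9% (82.5 to 83.4) and 57.6% (57.1 to 58.1), in a pair whose DNSnf2h list held 24890 hotspots and whose parental list held 35083. Intervals throughout reflect counting error alone: PCR copies were not told apart, so tags are not all separate molecules.

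**Figure D1:**
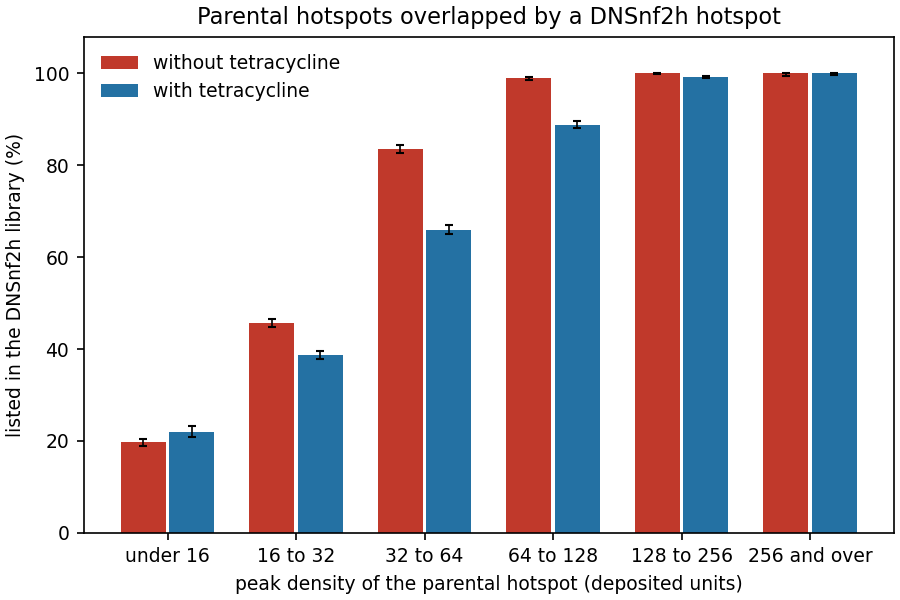
Share of parental hotspots overlapped by a DNSnf2h hotspot (vertical axis, percent) by peak density of the parental hotspot (horizontal axis, deposited units), without tetracycline in red and with it in blue, with 95% Wilson intervals. Above a density of 64 the red bars stand at 98.9% or more, and the blue bar from 64 to 128 stands at 88.9%.

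The strongest hotspots matched better between the lines without tetracycline than with it. Of the 1000 densest hotspots of induced DNSnf2h cells, 72.5% (69.7 to 75.2) overlapped one of the 1000 densest parental hotspots, against 51.0% (47.9 to 54.1) in the pair with tetracycline. Across the 15393 sites listed in all 4 libraries, the Spearman correlation of density between the lines was 0.81 without and 0.58 with tetracycline. Within a line, the correlation between tetracycline states was 0.91 in parental and 0.72 in DNSnf2h cells. The DNSnf2h library with tetracycline was thus the one least like the others: its correlation with either parental library was at most 0.58, while that of the induced library was 0.81 and 0.74. Sites of a library are not independent, and these values describe the 4 libraries.

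Density as deposited was lower in DNSnf2h cells at nearly every shared site. The median log2 ratio, DNSnf2h over parental, was -1.40 without tetracycline (SD 0.70 across 19363 sites), a 2.63-fold lower density. With tetracycline it was -1.51 (SD 0.91 across the 20115 sites shared by that pair), so a shift of this size was present without induction. As deposited, 3.22% of the shared sites were higher in induced DNSnf2h than in parental cells. What the authors scaled the densities to is not stated, so the size of this shift cannot be read as a change in openness. The ratios that follow are centred: the median of the shared sites of a pair was set to 1. A site called higher or lower is one that stands at least 2-fold above or below that median, which is 1 on the log2 scale.

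The ratio also depended on how strong a site was. In the weakest decile of shared sites, by geometric mean density, the median log2 ratio as deposited was -0.45. It fell through the deciles to -1.85 in the strongest, where DNSnf2h density was 3.61-fold lower. In the pair with tetracycline the same medians were -0.73 and -2.03. Part of this slope is fixed by the lists. A DNSnf2h hotspot is listed only from 8.06, so a site listed in both libraries with a parental density under 21.2 stands above the median whatever its value, and one under 42.4 cannot be called lower.

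**Figure D2:**
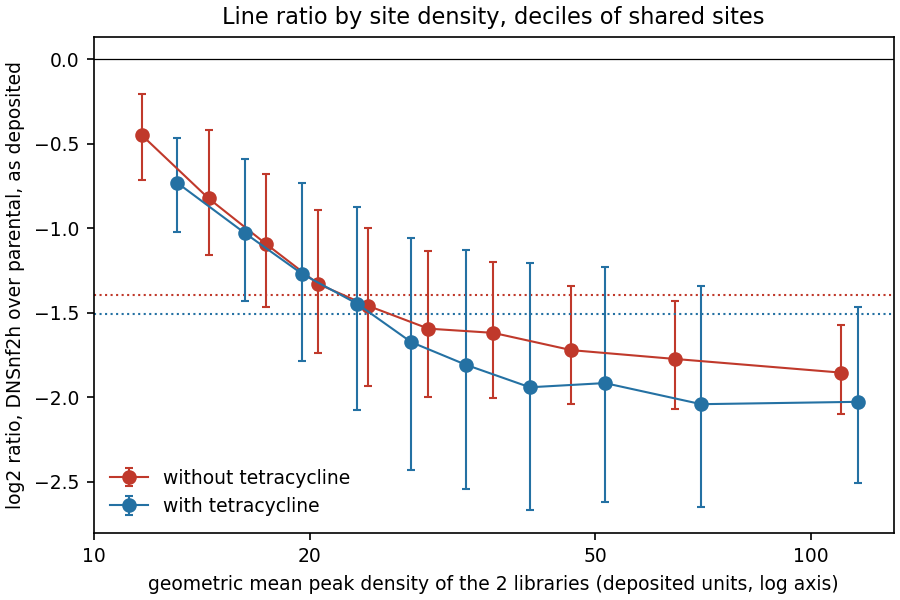
Median log2 ratio of DNSnf2h over parental density as deposited (vertical axis) in deciles of geometric mean peak density (horizontal axis, log scale), without tetracycline in red and with it in blue. Bars span the quartiles and dotted lines mark the medians of all shared sites, -1.40 and -1.51. Both curves fall with density, from -0.45 to -1.85 without tetracycline.

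After centring, 2072 shared sites (10.7%) were higher in induced DNSnf2h cells and 901 (4.65%) were lower. Within 0.1 of the threshold on the log2 scale, 502 called higher lay just past it and 544 uncalled sites just short of it. On the lower side the numbers were 325 and 453. These 2 groups were of different kinds. The higher sites were weak and narrow in parental cells, with a median density of 14.2 and a median hotspot width of 560 bp, beside 45.1 and 753 bp over all shared sites. The lower sites were strong and wide, at 96.5 and 877 bp. In DNSnf2h cells without tetracycline the same groups had nearly equal median densities of 13.9 and 15.3, so they were told apart by their parental values. Of the higher sites, 1669 (80.6%) had a parental density under 21.2, where the listing alone puts a site above the median. Over all shared sites 3804 (19.6%) had such a density.

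The balance of higher and lower sites turned with the scaling. With the median set to 1, 69.7% of the called sites were higher. On the deposited scale the counts were 8 higher (0.0413%) and 13291 lower (68.6%), and 0.0602% of the called sites were higher. With the median set to 1 within 20 bins of density there were 981 higher (5.07%) and 394 lower (2.03%) sites, of which 71.3% were higher. With the median of the 5000 strongest sites set to 1 the counts were 4560 and 132, and 97.2% were higher. Among the 10189 shared sites with a parental density of at least 42.4, where a call can be made in both directions, 84 were higher and 901 lower, so 8.53% were higher. That cut could remove no lower site, and it selects on the parental density by which the ratio is divided. No direction of the line difference held under all of these scales.

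Most sites called lower in the induced cells were lower before induction too. Of the 901 lower sites, 763 were listed in all 4 libraries, and 750 of these had a ratio below the median with tetracycline as well. That median is of all sites shared by the pair with tetracycline. The sites listed in all 4 had a median log2 ratio of -0.23 there, so most of them lay below it too. At 602 of them (78.9%) the difference with tetracycline was itself at least 2-fold lower. Over all sites listed in all 4, 22.8% were lower with tetracycline and 4.96% without it. In the pair with tetracycline taken on its own shared sites, 12.1% were higher and 17.9% lower. A further 131 lower sites were not listed in DNSnf2h cells with tetracycline but stood at least 2-fold lower by bound, that is, against the lowest density of that list.

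The higher sites were also seen with tetracycline, at a smaller share. Of 1247 higher sites listed in all 4 libraries, or 8.1% of such sites, 1173 were above the median with tetracycline. The median log2 ratio with tetracycline over all sites listed in all 4 was -0.23. Of the 1247, 548 (43.9%) were at least 2-fold higher with tetracycline, beside 9.21% of all sites listed in all 4. In 332 of the 2072 cases neither library with tetracycline listed the site, so no check was possible. Across the sites listed in all 4, the ratio without tetracycline and the ratio with it, which share no library, had a Pearson correlation of 0.73 and a Spearman correlation of 0.75. After centring in density bins these were 0.61 and 0.59.

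**Figure D3:**
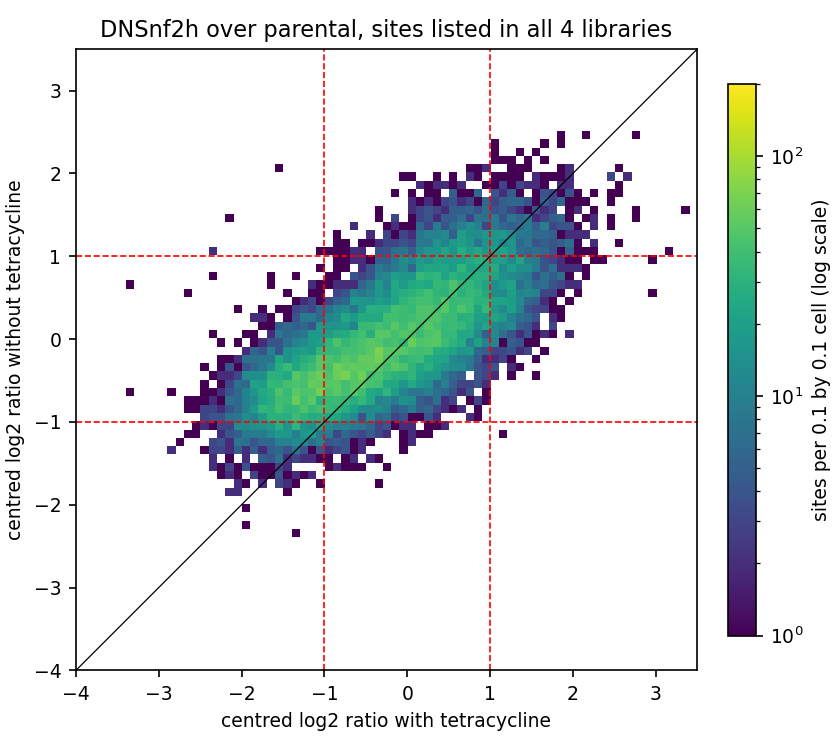
Centred log2 ratio of DNSnf2h over parental density without tetracycline (vertical axis) against the ratio with tetracycline (horizontal axis) at the 15393 sites listed in all 4 libraries. Colour gives the number of sites per cell on a log scale, red dashed lines mark 2-fold and the black line marks equal ratios. The cloud follows the diagonal and is wider along the horizontal axis, with an SD of 0.91 with and 0.67 without tetracycline.

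A difference was taken as absent with tetracycline where the site was listed in all 4 libraries, was not at least 2-fold the same way with tetracycline, and had log2 ratios that differed by at least 1 between the states. This left 188 higher and 20 lower sites, 15.1% and 2.62% of the called sites that could be measured in all 4. By bound, 131 more higher sites met the condition, and no lower site did. Differences of at least 1 between the log2 ratios were found at 9.79% of all sites listed in all 4 upward and at 2.55% downward. Each pair was centred on its own shared sites, and the difference had a median of 0.22 over these sites. A cut of 1 thus lay nearer to that median upward than downward. With both pairs centred on the sites listed in all 4, 142 higher and 21 lower sites were absent with tetracycline. Of the 188 higher sites, 161 had a log2 ratio under 0.5 with tetracycline, as had all 20 lower sites in their direction. At 82 of the 188 and 12 of the 20 the call without tetracycline also passed 2-fold when the centre was set within density bins. Over all called sites this held at 717 of 2072 higher and 354 of 901 lower sites. With a parental density of at least 42.4, 3 of the 188 higher sites were left. All 20 lower sites stayed, as they had to, because no site under 42.4 can be called lower.

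At the higher sites absent with tetracycline, parental density moved more than DNSnf2h density. At the 188 sites, median parental density was 32.9 with and 15.2 without tetracycline, and median DNSnf2h density was 11.8 and 15.4. Relative to the median change of each line, parental density went down by a median of 0.73 on the log2 scale and DNSnf2h density up by 0.34. The parental change was the larger part at 127 sites and the DNSnf2h change at 61. Over all 15393 sites listed in all 4, these counts were 6113 and 9280. Parental density fell at least 2-fold, after centring, at 57 of the sites, beside 2.66% of all sites listed in all 4. DNSnf2h density rose at least 2-fold at 10, beside 2.62% of all sites. The rule that chose these sites used the same 4 libraries, so these shares describe them and are no test.

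At most of the 20 lower sites DNSnf2h density moved more. Median DNSnf2h density was 31.3 with and 12.9 without tetracycline, and median parental density was 82.5 and 77.6. The centred median change was -1.33 in DNSnf2h and 0.35 in parental cells. DNSnf2h density fell at least 2-fold at 12 of the 20 sites, beside 6.7% of all sites listed in all 4. Its change was the larger part at 17 of the 20, beside 9280 of all 15393 sites listed in all 4. Parental density rose at least 2-fold at 4, beside 2.21%. All 20 sites were listed in all 8 libraries, beside 82.8% of the sites listed in all 4. Among the lower sites that were at least 2-fold lower in both states the share was 99.5%, so such listing was not particular to the 20. Cells with induced dominant-negative Brg1, the ATPase of SWI/SNF complexes, had a median centred log2 ratio to the same parental library of -1.09 at these 20 sites and -0.11 over all shared sites. For induced dominant-negative Chd4, the ATPase of NuRD, the values were -0.16 and -0.04. These 2 comparisons share the parental library without tetracycline with the DNSnf2h comparison. The 20 sites were chosen partly by their values in that library, so these ratios describe them and are no test. Median DNBrg1 density itself was 68.3 with and 37.5 without tetracycline at the 20 sites, beside 63.3 and 38.3 over all shared sites. With tetracycline, the DNBrg1 line stood at 0.04 at the 20 sites.

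The 5 higher sites with the greatest ratio among those absent with tetracycline were all near the start of the lists, with parental densities of 10.8 to 13.1 without tetracycline. On chromosome 10 from 42553849 to 42554577, density was 13.1 in parental and 21.4 in DNSnf2h cells without tetracycline, and 14.0 and 9.52 with it. The centred log2 ratio was 2.10 (95% exact binomial interval on tags 1.60 to 2.61) without and 0.96 (0.35 to 1.57) with tetracycline. DNSnf2h density was the highest of the 4 only when the protein was induced. The same order of values was seen on chromosome 2 from 155194901 to 155195641, where parental cells had 11.3 and DNSnf2h cells 17.7 without tetracycline, and 14.0 and 9.15 with it. Its ratios were 2.04 (1.51 to 2.60) and 0.90.

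At the other 3 of these sites the parental library fell. On chromosome 6 from 144850281 to 144850878, parental density was 87.7 with and 10.8 without tetracycline, and DNSnf2h density was 10.8 and 17.5. The ratio went from -1.51 (-1.95 to -1.10) with to 2.09 (1.55 to 2.66) without tetracycline, the only one of the 5 that changed sign. This site had 79.3 and 53.7 in DNCHD4 cells with and without tetracycline and 45.1 and 21.7 in DNBrg1 cells. On chromosome 17 from 8000275 to 8000873, parental density was 26.7 with and 10.8 without, beside 18.1 and 17.3 in DNSnf2h cells. On chromosome 3 from 29990805 to 29991365 it was 40.3 and 11.6, beside 23.2 and 18.3. DNSnf2h density was thus slightly lower without tetracycline at both sites, while the ratios went from 0.95 to 2.08 and from 0.71 to 2.06. Leaving aside the chromosome 6 site, the ratios with tetracycline lay between 0.71 and 0.96, just under the threshold.

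The 5 lower sites with the lowest ratio without tetracycline, among those absent with it, had parental densities of 67.4 to 197 in that state. On chromosome 11 from 106361728 to 106363083, parental density was 152 with and 197 without tetracycline, and DNSnf2h density was 42.6 and 22.8. The ratio was -0.33 with and -1.72 (-2.02 to -1.43) without tetracycline, a difference of -1.39 (-1.76 to -1.03). DNBrg1 and DNCHD4 cells had 168 to 191 there in all 4 libraries.

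A fall in DNSnf2h density with little parental change was also seen at 2 other sites. On chromosome 10 from 74583601 to 74584309, DNSnf2h density was 36.4 with and 13.1 without tetracycline, beside 106 and 87.3 in parental cells, and the ratio went from -0.03 to -1.34 (-1.75 to -0.95). On chromosome 16 from 10846498 to 10847266, it was 31.4 and 12.5 beside 95.5 and 80.8, and the ratio went from -0.10 to -1.30 (-1.71 to -0.90). DNBrg1 density was lower without tetracycline at both, at 63.3 and 23.2 on chromosome 10 and 49.2 and 29.1 on chromosome 16. Over all shared sites its median was 63.3 with and 38.3 without tetracycline, so the chromosome 16 values differed by about as much as the whole library. DNCHD4 cells had 147 and 141 at the former and 112 in both states at the latter.

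The other 2 of the 5 differed because parental density rose. On chromosome 9 from 66088061 to 66089328, parental density was 39.7 with and 130.3 without tetracycline, and DNSnf2h density was 10.5 and 17.5. DNSnf2h density rose there as well, by less, and the ratio went from -0.42 to -1.50 (-1.84 to -1.17). On chromosome 1 from 173192790 to 173193720, parental density was 36.0 and 67.4, while DNSnf2h density stayed near the start of its list at 10.3 and 9.67. Its ratio went from -0.30 to -1.41 (-1.88 to -0.96). DNCHD4 density was also higher without tetracycline at both sites, at 31.8 with and 105 without on chromosome 9 and 43.8 and 90.5 on chromosome 1. DNBrg1 density was 25.2 with and 39.0 without tetracycline at the former, and 53.3 and 42.1 at the latter, where it was lower without.

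**Figure D4:**
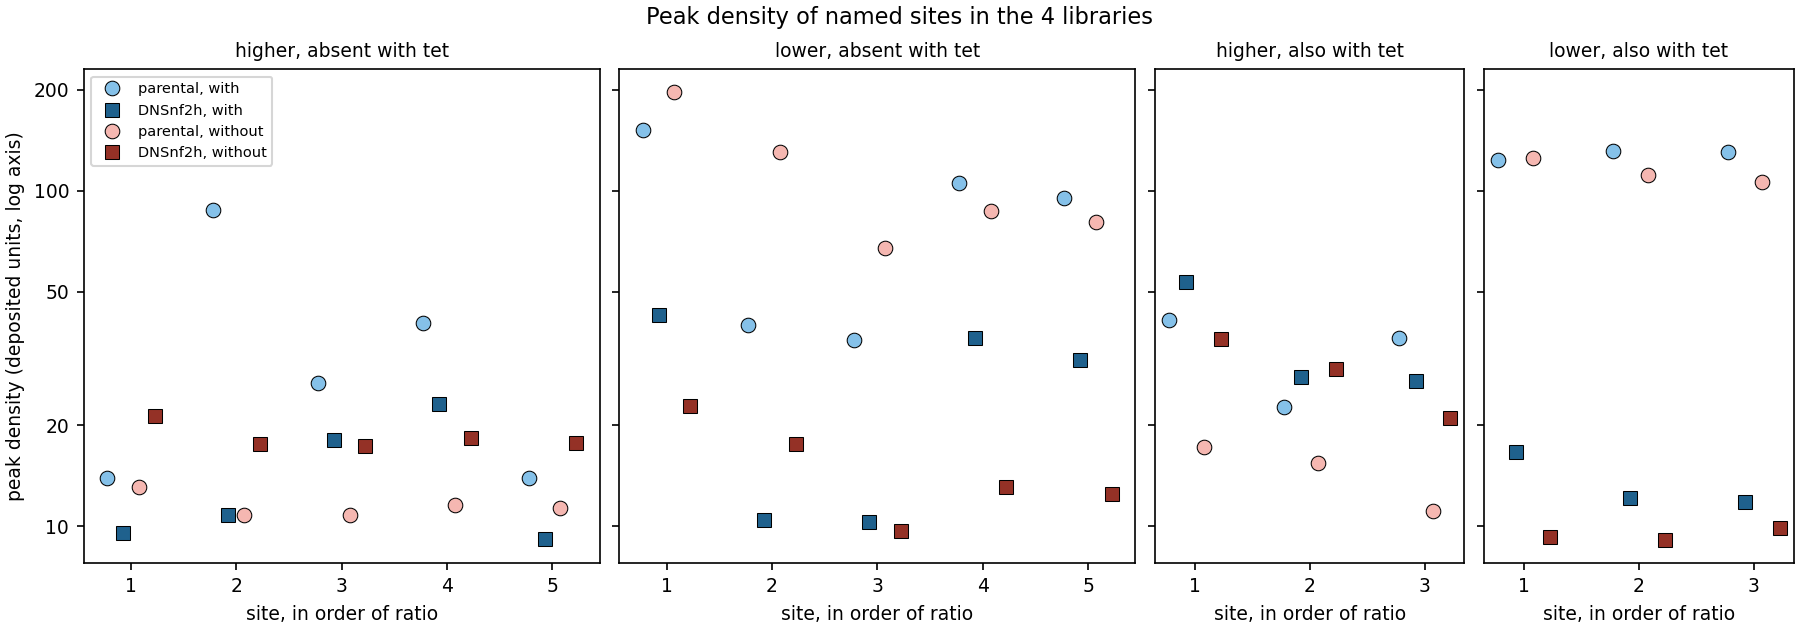
Peak density (vertical axis, deposited units, log scale) of 16 named sites in the 4 libraries: circles are parental, squares DNSnf2h, blue with and red without tetracycline. From left, the panels hold the 5 higher and 5 lower sites absent with tetracycline and the 3 higher and 3 lower sites also seen with it, each ordered by ratio. In the second panel the dark red squares lie between 9.67 and 22.8, below all parental values.

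Among shared sites listed in all 4 libraries and outside dense clusters (at least 15 hotspots of a list within 50 kb), those at least 2-fold different in both states included ratios further from the median than those absent with tetracycline. On chromosome 3 from 142021733 to 142022487, density without tetracycline was 17.2 in parental and 36.1 in DNSnf2h cells, and with it 41.2 and 53.6. The ratio was 2.46 (2.05 to 2.89) without and 1.88 (1.58 to 2.19) with tetracycline. On chromosome 3 from 52863810 to 52864425 the ratios were 2.33 and 1.80, and on chromosome 9 from 42200743 to 42201562 they were 2.32 and 1.08. At all 3 sites DNSnf2h density exceeded parental density without tetracycline even as deposited.

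Among the lower sites seen in both states, the lowest ratio was on chromosome 10 from 41808822 to 41809956. Density was 125 in parental and 9.27 in DNSnf2h cells without tetracycline, and 123 and 16.6 with it. The ratio was -2.36 (-2.83 to -1.92) without and -1.39 (-1.73 to -1.05) with tetracycline. On chromosome 8 from 112302172 to 112302996 the ratios were -2.22 and -1.93, and on chromosome 2 from 19578783 to 19580266 they were -2.04 and -1.97. At these last 2 sites the difference between the states, 0.29 and 0.07 in size, lay within counting error.

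Sites listed in DNSnf2h cells alone were weak. Of the 13821 such sites, 99.3% had a density under 16, their median was 9.07 and their median width 378 bp. None of the other 6 libraries listed 82.8% of them, 5.81% were listed in DNSnf2h cells with tetracycline and 5.01% in parental cells with it. After centring, a density of 7.63 would place such a site 2-fold above the lowest parental density, which is less than any listed value, so all 13821 count as higher by that bound. As deposited 29 do. For this reason they were kept out of the counts above.

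In all, 11 of the sites in DNSnf2h alone reached a density of 24, and 9 of these were listed in DNSnf2h cells with tetracycline too. The densest lay on chromosome 7 from 148377873 to 148379071, and was singled out after its values were seen. It had 107 without and 80.7 with tetracycline, and none of the 6 libraries of the other lines listed it. In parental cells without tetracycline 9 hotspots lay within 50 kb, of which the weakest had 15.2, and no hotspot number was missing at the site in any of the 6 lists. Its density was high in both DNSnf2h libraries, so the line differed there without induction as well.

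Outside dense clusters, the 3 densest sites listed in induced DNSnf2h cells and in no other of the 4 libraries were not listed in the other lines either. They lay on chromosome 2 from 177301973 to 177302564, on chromosome 6 from 66486373 to 66486965 and on chromosome 16 from 37928925 to 37929475, with densities of 23.8, 22.2 and 22.0. Against the lowest density in the DNSnf2h list with tetracycline, these values were at least 2.96, 2.76 and 2.74 times as high, and no hotspot number was missing there in that list. Within 50 kb that list held nothing under 9.52 on chromosome 2 and 16.4 on chromosome 6, and against such values the rises would be smaller. It listed no hotspot within 50 kb of the chromosome 16 site. The parental lists without and with tetracycline each lack at least 1 hotspot number at the sites on chromosomes 6 and 16, so no bound against parental cells is given for them. On chromosome 2 no number was missing, and the density was at least 2.37-fold above the lowest parental value as deposited. Within 50 kb of that site the lowest parental value was 10.6.

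In the other direction, 3246 sites were listed in 3 of the 4 libraries but not in induced DNSnf2h cells. Their median density was 18.0 in parental cells without tetracycline, 28.2 in parental cells with it and 11.8 in DNSnf2h cells with it. The DNSnf2h value with tetracycline was thus itself near the start of its list, and it reached 2 times the lowest value of the induced list at 607 sites. Outside dense clusters, the densest in parental cells without tetracycline was on chromosome 3 from 108204401 to 108205225, at 101, beside 119 in parental and 9.90 in DNSnf2h cells with tetracycline. After centring it was at least 4.75-fold lower without tetracycline, and its log2 ratio with tetracycline was -2.08, so the line differed there before induction. On chromosome 11 from 116453595 to 116454253 parental density was 88.0 and the fall at least 4.15-fold, with a log2 ratio of -1.21 with tetracycline. On chromosome 7 from 134417284 to 134417941 it was 87.5 and at least 4.12-fold, with -0.82. DNSnf2h density fell at least 1.23-fold, 2.04-fold and 1.78-fold at these 3 sites on removal of tetracycline. The bounds take the lowest density of the whole list. Within 50 kb the induced library listed nothing under 13.3, 47.6 and 10.1. Against such values the centred falls on chromosomes 3 and 7 would be smaller. On chromosome 11 none would be left, as 88.0 is less than 2.63 times 47.6. DNSnf2h density with tetracycline, 9.90 on chromosome 3 and 16.4 on chromosome 11, lay under these local values. No fall on removal of tetracycline would then be left at those sites.

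Median ratios differed between regions of the genome, and the order of regions was alike in both states. In 218 windows of 10 Mb with at least 30 shared sites, the median centred log2 ratio without tetracycline ranged from -0.50 to 0.61. The window medians of the 2 states had a Pearson correlation of 0.86 across windows, or 0.74 with centring in density bins. They had the same sign in 158 of the 218 windows. On chromosome 6 from 10 to 20 Mb the median was 0.61 over 52 sites without and 0.75 with tetracycline, and 30.8% of the sites were higher. The windows of chromosome 15 from 20 to 30 Mb and of chromosome 3 from 150 to 160 Mb stood at 0.50 and 0.49, and at 0.40 and 0.25 with tetracycline. At the low end was chromosome 4 from 150 to 160 Mb, at -0.50 over 63 sites without and -0.82 with tetracycline. The windows of the X chromosome from 90 to 100 Mb and of chromosome 11 from 120 to 130 Mb both stood at -0.39, and at -0.54 and -0.71 with tetracycline. Centred within density bins, these 6 values were 0.47, 0.28, 0.20, -0.43, -0.17 and -0.05, so the shift at chromosome 11 nearly vanished with density taken into account.

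**Figure D5:**
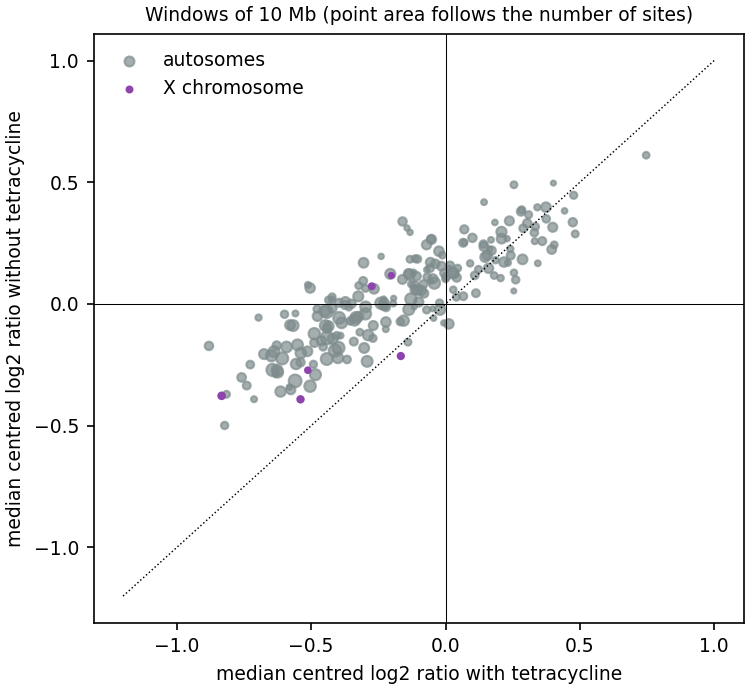
Median centred log2 ratio of DNSnf2h over parental density in 218 windows of 10 Mb, without tetracycline (vertical axis) against with tetracycline (horizontal axis); grey points are autosomal, purple points lie on the X chromosome and the dotted line marks equal values. The windows run from -0.50 to 0.61 without tetracycline and follow the values with it.

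By chromosome, X had the lowest median ratio in both states, at -0.21 over 415 sites without and -0.54 with tetracycline. Chromosome 3 was highest without tetracycline, at 0.15. In density bins X stood at -0.18 and chromosome 3 at 0.14, so both kept their sign. Dense clusters held 418 shared sites in or near 86 regions. Their median ratio was 0.02, and 72 of them (17.2%) were higher and 16 (3.83%) lower, beside 10.7% and 4.65% of all shared sites.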

How the data were processed

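DNase-seq signal was compared between DNSnf2h and parental 3134 cells without tetracycline, 1 library each, with the libraries with tetracycline as the check; groups follow the labels. Nuclei were digested with 60 to 80 U/ml DNase I for 3 min and fragments of 100 to 500 bp were sequenced, per the labels' protocols. CASAVA 1.6 and build mm9 are named in the submitters' processing notes; the caller of the hotspots is not given in the sources. For each library the authors deposited a list of hotspots with a highest and a mean tag density, a signal scaled by a factor of the library. A z-score (the authors' enrichment score) and a p-value stand beside them, per the file headers; neither was used in a comparison. Coordinates are printed as the lists give them.

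Peak densities were whole multiples of 1 step in every library (within 0.05 tags), and division by it gave tags. Hotspots without tetracycline were merged at 1 bp, and a site took its highest density per library. Each pair was centred on its own shared sites. Intervals are at 95%: exact binomial for ratios, Wilson for shares, and normal on the log scale for differences of ratios. Named sites are the 5 highest and 5 lowest ratios absent with tetracycline, 3 and 3 present with it, the 3 densest of each listing pattern and 3 and 3 windows, outside dense clusters. The members, rules and lists were chosen with earlier results of these data known. The calling step was run on simulated tags at the shared sites, drawn without a listing minimum, so the effect of listing on the calls was not checked. Versions were Python 3.11.15, pandas 2.3.3, numpy 2.4.6, matplotlib 3.10.9 and scipy 1.17.1.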

Additional observations from a re-analysis of the deposited data

Results flagged for a closer look

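At 6 sites the line difference was at least 2-fold in opposite directions with and without tetracycline; each group has 1 library, so the difference was not tested. They were chosen after their values were seen. At 5 sites the ratio was low with and high without tetracycline. For the chromosome 6 site from 144850281, described above, the centred log2 ratios differed by 3.61. On chromosome 3 from 60303601 to 60304512 the difference was 3.59: parental density was 138 with and 15.2 without tetracycline, DNSnf2h 11.0 and 15.7, and DNCHD4 194 and 144. On chromosome 8 from 108583804 to 108584255 it was 3.45, with parental values of 129 and 10.6, DNSnf2h 8.78 and 8.46, and DNCHD4 159 and 140. A difference of 3.45 was also found on chromosome 16 from 84836209 to 84836820, with parental values of 125 and 17.8, DNSnf2h 8.40 and 14.1, and DNCHD4 184 and 230. On chromosome 5 from 114114608 to 114115234 the difference was 2.12, with parental values of 53.6 and 16.5, DNSnf2h 8.96 and 12.9, and DNCHD4 41.3 and 36.2. DNBrg1 density was 80.9 with and 132 without tetracycline at the chromosome 3 site, and 17.0 and 171 at the chromosome 16 site. The sites on chromosomes 8 and 5 were not listed in either DNBrg1 library. With centring in density bins the ratios without tetracycline at the sites on chromosomes 3, 8, 16 and 5 were 0.96, 0.03, 0.58 and 0.56, all under 2-fold. At all 5 the parental change was larger than that of DNSnf2h. On chromosome 18 from 70857234 to 70857999 the difference was -2.29: parental density rose from 31.3 with to 53.8 without tetracycline and DNSnf2h density fell from 24.5 to 9.27. Its ratio without tetracycline was -1.14, and by mean density -0.58, under 2-fold.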

How the results depend on the processing

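Counts are given in the order higher sites, lower sites, and higher and lower sites absent with tetracycline; they were 2072, 901, 188 and 20. As deposited they were 8, 13291, 0 and 167; at 1.5-fold 4628, 3682, 310 and 89; at 3-fold 321, 59, 52 and 1; and with the 20000 densest hotspots of each list 771, 338, 36 and 9. Density bins gave 981 higher, 394 lower and 92 higher absent sites. Centring on the 5000 strongest sites gave 4560, 132 and, for lower absent sites, 7. At least 50 tags in both libraries left 1321 higher and 13 lower absent sites, and mean density gave 63 lower absent sites. With absence taken as a log2 ratio under 0.5 with tetracycline, 310 higher and 48 lower sites were absent. The minimum parental density of 42.4, chosen after seeing the data, left 84 higher and 3 higher absent sites.

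Centring by chromosome, 50% overlap, sites merged from 4 lists, intervals excluding 1 or, for the difference, 0, leaving out dense clusters, and centring on sites listed in all 4 (also chosen after seeing the data) kept the counts within 1.5 times. By bound, 13821 sites in DNSnf2h alone were higher and 401 in parental alone lower, beside 29 and 7039 as deposited and 3034 and 89 against local values. Overlap at 50% of a hotspot was 58.3% and 49.7%, and among 20000 hotspots 74.2% and 72.6%. At the 5000 strongest sites the median log2 ratio was -1.80 without and -2.02 with tetracycline. As deposited, the ratios without tetracycline of the sites on chromosomes 8, 16 and 5 with opposite calls were -0.32, -0.33 and -0.35, a reversed sign. No paired analysis was possible because each group has 1 library. Counting error of the median hotspot was 13.4% in induced DNSnf2h and 10.4% in parental cells.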
